A study of Mus musculus with 4 samples.

Results

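Mitochondrial ribosomal protein genes encode the protein part of the ribosome that works inside mitochondria. They were taken here as every gene whose current symbol is Mrpl or Mrps followed by a number and at most 1 letter. Of 78 such genes with a probe on the array, 77 were tested, among 15527 genes tested in all. Mrps11 was left out because its single probe gave usable spots on only 2 arrays. Each gene was represented by its brightest tested probe, and 28 members had more than 1 tested probe.

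The mitochondrial ribosome translates the few messages of the mitochondrial genome, which encode membrane subunits of the respiratory chain and of ATP synthase. Its RNA is made inside the organelle, whereas all of its proteins are encoded in the nucleus, translated in the cytosol and imported. Some of these proteins have counterparts in bacterial ribosomes, and others occur only in mitochondria. The exocrine pancreas, which makes large amounts of secreted protein, has a high demand for ATP.

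The study compared pancreas of Cyp11a1 knockout mouse embryos with pancreas of wild-type embryos, both at E18.5, late in gestation, and both of strain C57BL/6JNarl. Cyp11a1 is the mitochondrial enzyme that turns cholesterol into pregnenolone. Each of 4 two-colour Agilent arrays held 1 knockout extract in red and 1 wild-type extract in green, and no array had the dyes turned round, so a dye effect on a gene cannot be told apart from genotype. How the allele was made, and how many embryos gave each extract, are not given in the sources used here. A log2 ratio below is that of knockout over wild type, given as mean ± SE from limma (n = 4 arrays where no n is printed), and p-values were adjusted over all genes tested with a threshold of 0.05. The labels call the arrays biological replicates.

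Spots had a median intensity of 304 to 467 for knockout extracts (red) and 163 to 224 for wild-type extracts (green), with none saturated. For the spike-in controls, the file headers give slopes of observed on expected log ratio of 0.71, 0.73, 0.71 and 0.67 on arrays 1 to 4. These are below 1, so ratios of those controls were read as smaller than expected. Sizes of change given here were not rescaled for this. The targeted gene, Cyp11a1, was at -0.16 ± 0.070 (adjusted p = 0.165), but where its probe lies relative to the deletion is not given, so this does not check the genotype labels. All 10 acinar markers were well above background in both channels, and their summed normalised intensity was 541611 to 825541 in knockout and 521690 to 556454 in wild-type extracts. Among these, Cpa1, Cel and Rbpjl were higher in knockout and Pnlip was lower. All 8 measured hepatocyte markers of 9 listed were also well above background, with sums of 9100 to 17403 in knockout and 5643 to 13547 in wild-type extracts. The log2 ratio of Alb, the albumin gene, was 4.13, 2.70, -3.52 and 1.44 on arrays 1 to 4. For the 4 measured erythroid markers of 6 listed, the sums were 46682 to 79311 in knockout and 31789 to 64632 in wild-type extracts. In whole organs, fewer cells of a type and less RNA per cell cannot be told apart.

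More mitochondrial ribosomal protein genes were higher than lower in knockout pancreas, each by a small amount. Of the 77 members, 26 rose, 2 fell and 49 did not pass, so that 33.8% rose, where 9.45% of all genes tested did, and 2.60% fell, where 5.12% of all genes did. Their median log2 ratio was 0.15 (1.11-fold), beside 0.013 for all genes, and their quartiles were 0.046 and 0.22. The largest increase was 1.40-fold. Values of 60 members lay above 0 in the mean (54.7% of all genes did). On every array that measured them, 48 members lay above 0 (62.3%, against 24.1% of all genes) and 4 lay below 0 (5.19%, against 15.4% of all genes). In limma, an unadjusted p under 0.05 was reached by 51 members, 46 higher and 5 lower. Over all 15527 genes it was reached by 4777, of which 2954 were higher and 1823 lower. These counts over all genes are the background for each unadjusted count below.

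The median of the members was 0.096, 0.18, 0.11 and 0.13 on arrays 1 to 4, where that of all genes was 0.017 to 0.022. Alb was lower in knockout on array 3 and higher on the others, and without replicate 3 the median was 0.15. The part of hepatocyte, acinar or erythroid RNA in these values was not tested. Fewer members passed as higher when 1 array was left out, namely 12, 17, 10 and 15 without replicate 1, 2, 3 and 4. The 8 members that rose in all of these fits were Mrpl52, Mrps15, Mrpl48, Mrpl14, Mrpl47, Mrpl42, Mrpl11 and Mrpl37, and Mrpl12 fell in all of them.

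**Figure D1:**
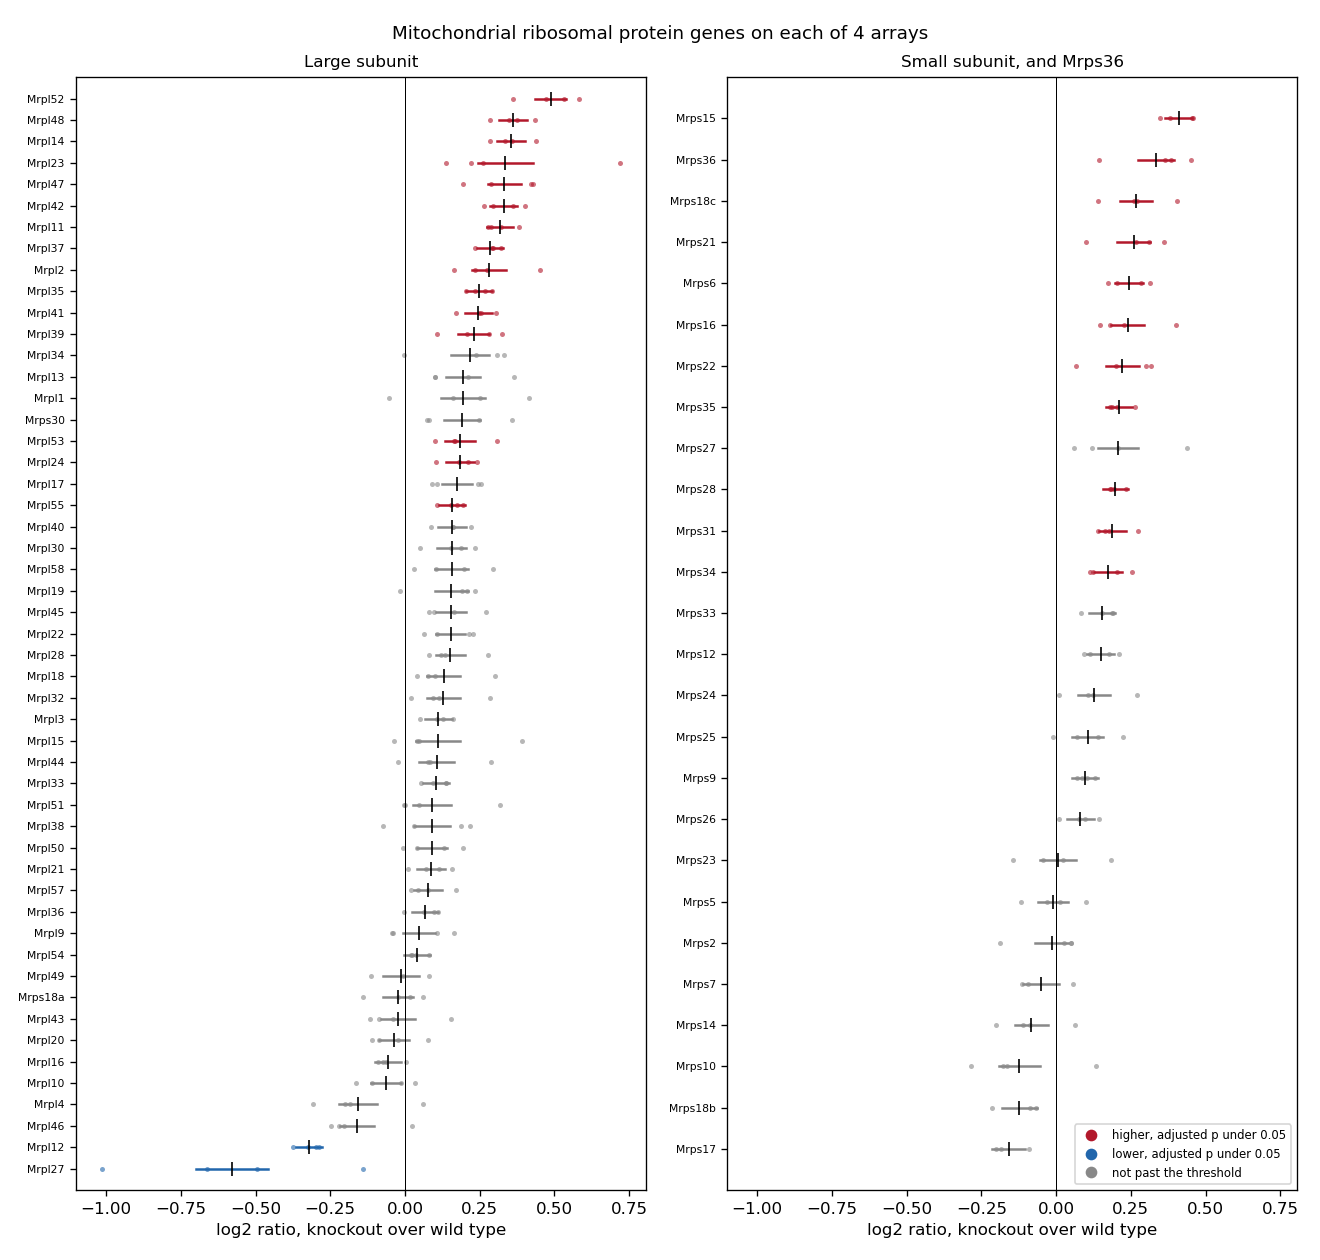
Log2 ratio of knockout over wild type (horizontal axis) for each mitochondrial ribosomal protein gene, with large-subunit genes at the left and small-subunit genes and Mrps36 at the right. Points are single arrays, ticks are means and bars are ± SE of the limma fit. The 26 genes that rose (red) lie in the upper part of both panels among genes that did not pass (grey), and Mrpl12 and Mrpl27 (blue) lie at the bottom of the left one.

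**Figure D2:**
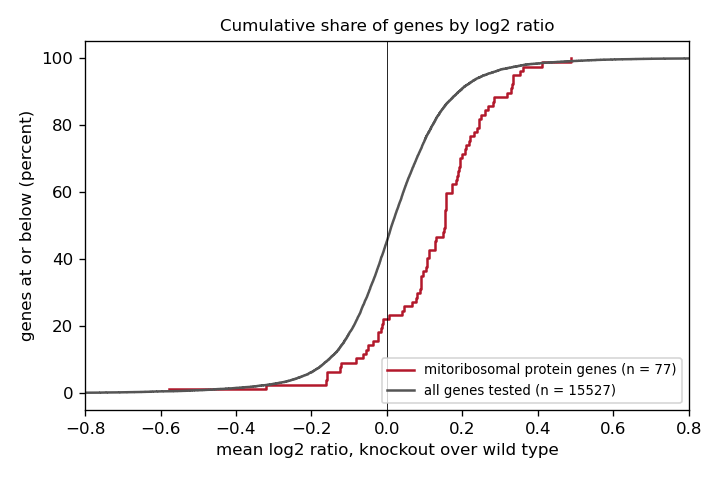
Cumulative percent of genes (vertical axis) at or below each mean log2 ratio of knockout over wild type (horizontal axis, cropped at 0.8 on either side of 0), for the 77 mitochondrial ribosomal protein genes and for all 15527 genes tested. The curve of the members lies to the right over most of the range, with medians of 0.15 and 0.013.

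Mrpl52, a large-subunit protein with no bacterial counterpart, had the largest increase. Its normalised log2 intensity was 11.49, 11.32, 11.94 and 11.68 in knockout extracts, against 11.13, 10.74, 11.47 and 11.15 in the wild-type extracts of the same arrays. Knockout was higher within each array, although levels of the groups overlap across arrays. Mrpl52 rose by 0.49 ± 0.051 (limma adjusted p = 0.0023, 95% interval 0.37 to 0.61). Mrps15, the counterpart of a small-subunit protein that binds ribosomal RNA early in bacterial assembly, followed with levels of 9.51, 9.89, 10.26 and 9.97 in knockout and 9.06, 9.44, 9.87 and 9.62 in wild-type extracts. It rose by 0.41 ± 0.045 (limma adjusted p = 0.0026), with 0.35 to 0.46 on single arrays.

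The 2 members that fell are both large-subunit proteins with bacterial counterparts. Mrpl12 forms the flexible stalk that recruits translation factors to the ribosome. Its log2 intensity was 11.91, 11.62, 12.03 and 12.03 in knockout, against 12.20, 11.99, 12.32 and 12.35 in wild-type extracts. The ratios of -0.29, -0.37, -0.30 and -0.32 were close to each other, and Mrpl12 fell by 0.32 ± 0.043 (limma adjusted p = 0.0049). With median centring in place of loess its ratio was 0.14, above 0, or -0.11 with centring on the genes tested (adjusted p = 0.041 and 0.084).

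Mrpl27 is the counterpart of a protein close to the site of peptide bond formation. Its log2 intensity was 10.58, 10.92, 11.30 and 11.44 in knockout, against 11.08, 11.94, 11.45 and 12.10 in wild-type extracts. Array 2, at -1.01, was far below array 3, at -0.14, with -0.50 and -0.66 on arrays 1 and 4. Mrpl27 was lower at -0.58 ± 0.12 (limma adjusted p = 0.021), but it did not pass without replicate 1 or 4 (adjusted p = 0.065 and 0.067), and Feature Extraction's own log ratio gave -0.55 (adjusted p = 0.058). With median centring in place of loess it was at -0.15 and did not pass (adjusted p = 0.268). Mrpl12 and Mrpl27 each rest on 1 probe.

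The stretches of 250 bases before the annotated starts of these genes are shown because they hold the 2 largest increases and both decreases, and because the members were compared for short motifs of factors known for nuclear-encoded mitochondrial genes. They are from RefSeq on GRCm38.p6, whereas the array files name the older build mm9. Capitals mark matches to an ETS-type motif (CCGGAAG) or a YY1-type motif (AAGATGG) on either strand, and no match to the NRF1-type (GCATGCG) or E-box (CACGTG) letters lies in them.
Mrpl52, chr14:54426659-54426908, plus strand: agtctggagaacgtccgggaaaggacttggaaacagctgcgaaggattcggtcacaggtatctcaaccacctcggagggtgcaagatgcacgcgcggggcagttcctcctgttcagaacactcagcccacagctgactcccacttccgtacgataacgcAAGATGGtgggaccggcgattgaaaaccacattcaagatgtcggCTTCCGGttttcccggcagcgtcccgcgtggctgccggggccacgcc
Mrps15, chr4:126046678-126046927, plus strand: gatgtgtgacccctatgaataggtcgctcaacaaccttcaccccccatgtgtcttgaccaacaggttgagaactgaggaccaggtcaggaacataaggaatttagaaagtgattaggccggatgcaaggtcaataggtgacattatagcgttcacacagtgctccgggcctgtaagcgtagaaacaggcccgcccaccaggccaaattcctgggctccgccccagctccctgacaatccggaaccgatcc
Mrpl12, chr11:120484387-120484636, plus strand: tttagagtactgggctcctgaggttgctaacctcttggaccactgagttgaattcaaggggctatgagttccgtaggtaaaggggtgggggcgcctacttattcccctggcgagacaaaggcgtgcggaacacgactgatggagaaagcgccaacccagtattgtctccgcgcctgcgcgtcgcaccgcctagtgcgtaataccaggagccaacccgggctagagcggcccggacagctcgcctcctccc
Mrpl27, chr11:94653541-94653790, plus strand: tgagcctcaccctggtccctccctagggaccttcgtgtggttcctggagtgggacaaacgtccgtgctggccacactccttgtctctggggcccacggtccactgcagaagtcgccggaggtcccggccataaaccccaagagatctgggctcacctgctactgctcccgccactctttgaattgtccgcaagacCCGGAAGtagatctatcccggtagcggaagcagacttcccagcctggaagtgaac

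The ETS-type letters stand before the start of Mrpl52, which rose (47 bases before it, on the other strand), and of Mrpl27, which was lower (55 bases before it). A further ETS-type match of Mrpl52 lies just past its start, outside the stretch shown but inside the wider window counted below. The YY1-type letters stand 91 bases before the start of Mrpl52. Windows ran from 250 bases before to 50 after the start, and a gene was counted if any of its windows held the motif. Of 68 members matched by symbol, 26 (38.2%) held the ETS-type motif, where 15.9% of tested genes and 9.93% of all genes with a window did. It stood in 7 of 23 members that rose (30.4%) and in 18 of 43 that did not pass (41.9%). The YY1-type motif was in 12 members (17.6%), where 7.73% of tested genes and 7.28% of all genes with a window held it. Among members that rose it was in 4 (17.4%). NRF1-type letters were in 8 members (11.8%), of which 1 rose, where 5.85% of tested genes and 4.0% of all genes with a window held them. The E-box was in 5 members (7.35%), where 10.4% of tested genes and 8.09% of all genes with a window held it. The ETS-type letters end in AAG and the YY1-type letters begin with it, so that matches to both can overlap. These shares are a description of the windows and do not show binding.

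In the large subunit, 15 of 51 tested proteins rose, the 2 above fell and 34 did not pass, with a median of 0.15. That is 29.4% higher and 3.92% lower, where 9.45% and 5.12% of all genes tested were. Among its 30 proteins with bacterial counterparts, 8 rose (26.7%) and 2 fell (6.67%, near the 5.12% of all genes). Mrpl14, which faces the small subunit, rose by 0.35 ± 0.046 with 0.29, 0.36, 0.44 and 0.33 on arrays 1 to 4 (limma adjusted p = 0.0045). Mrpl11, at the base of the factor-binding region, rose by 0.32 ± 0.044, with 0.28 to 0.38 on single arrays. Mrpl10, which anchors the stalk, was at -0.064 and did not pass (adjusted p = 0.432).

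Mrpl47, the counterpart of a bacterial protein at the exit of the peptide tunnel, rose by 0.33 ± 0.055 (limma adjusted p = 0.0097) with 0.42, 0.43, 0.29 and 0.19 on arrays 1 to 4. Mrpl23 was higher at 0.33 ± 0.092 (limma adjusted p = 0.049), with 0.14, 0.22, 0.72 and 0.26 on arrays 1 to 4. The value of Mrpl23 rests in part on array 3, since without replicate 3 it was 0.21 (adjusted p = 0.083), and it did not pass without any 1 of the replicates (adjusted p = 0.069 to 0.101). Mrpl24 was higher at 0.18 ± 0.046 (limma adjusted p = 0.037, and 0.071 to 0.122 without 1 replicate). Mrpl22 at 0.15, Mrpl17 at 0.17 and Mrpl45, which helps to hold the ribosome at the inner membrane, at 0.15 did not pass (adjusted p = 0.058 to 0.081). Of these, Mrpl45 is classed here as found only in mitochondria. The other tested probe of Mrpl17 gave -0.11 (n = 3 arrays), and the mean of its probes was 0.058.

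The other 3 large-subunit proteins with bacterial counterparts completed those that rose. Mrpl2, close to the catalytic centre, was higher at 0.28 ± 0.057 (limma adjusted p = 0.019), but did not pass without replicate 1 or 3 (adjusted p = 0.064 and 0.066). Mrpl35 was higher at 0.25 ± 0.043 (adjusted p = 0.055 without replicate 3). Its other tested probe gave 0.11 and did not pass (limma adjusted p = 0.186 among all probes). The mean of the Mrpl35 probes was 0.18 (limma adjusted p = 0.033). Mrpl55 lay just inside the threshold at 0.16 ± 0.043 (limma adjusted p = 0.0496), and did not pass without any 1 of the replicates. Mrpl40, classed here as found only in mitochondria, lay just outside the threshold at 0.16 ± 0.045 (limma adjusted p = 0.057).

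Of 21 large-subunit proteins classed here as found only in mitochondria, 7 rose (33.3%, where 9.45% of all genes did) and 0 fell in limma. At an unadjusted p under 0.05, 11 were higher and 1 was lower. Besides Mrpl52, Mrpl48 rose by 0.36 ± 0.046 with 0.35, 0.44, 0.38 and 0.28 on arrays 1 to 4. Mrpl42 rose by 0.33 ± 0.046 and its other tested probe gave 0.37. Mrpl37 rose by 0.29 ± 0.043, with 0.23 to 0.32 on single arrays, a narrow range. The genes Mrpl41, Mrpl39 and Mrpl53 were higher at 0.24, 0.23 and 0.19, and each failed to pass without at least 2 of the replicates (adjusted p up to 0.061, 0.091 and 0.128). A pair of proteins that carry small-subunit names but sit in the large subunit did not pass, with Mrps30 at 0.19 (adjusted p = 0.076) and Mrps18a at -0.022 (adjusted p = 0.801). Mrpl58, a ribosomal protein that is also a peptide-releasing hydrolase, was at 0.16 ± 0.055 (adjusted p = 0.101).

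In the small subunit, 10 of 25 tested proteins rose (40%, where 9.45% of all genes did) and 0 fell in limma. At an unadjusted p under 0.05, 14 were higher and 1 was lower. The median was 0.15, as in the large subunit. Of 15 small-subunit proteins with bacterial counterparts, 6 rose (40%). Mrps18c was higher at 0.27 ± 0.054, with 0.26, 0.40, 0.27 and 0.14 on arrays 1 to 4, and its other probe gave 0.32. It did not pass without replicate 1 or 3 (adjusted p = 0.062 and 0.064). Mrps21 was at 0.26 ± 0.055, Mrps6 at 0.24 ± 0.047, Mrps16 at 0.24 ± 0.055 and Mrps28 at 0.20 ± 0.042, all past the threshold with limma adjusted p of 0.016 to 0.029. Leaving out replicate 3 ended the call for each of these genes (adjusted p = 0.069 to 0.103). For Mrps21 leaving out replicate 2 or 4 did so too, for Mrps16 replicate 1 or 4, and for Mrps28 replicate 1 or 4. The other tested probe of Mrps6 gave 0.10 and did not pass (limma adjusted p = 0.199 among all probes). The mean of the Mrps6 probes was 0.17 (limma adjusted p = 0.038).

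Of 10 small-subunit proteins classed here as found only in mitochondria, 4 rose (40%, where 9.45% of all genes did). Mrps35 was higher at 0.21 ± 0.043, with 0.20, 0.26, 0.19 and 0.18 on arrays 1 to 4 (limma adjusted p = 0.021, and 0.066 to 0.071 without replicate 1, 3 or 4). Mrps22, at 0.22 ± 0.055, ranged from 0.066 on array 4 to 0.32 on array 1 (limma adjusted p = 0.037). It did not pass without replicate 1, 2 or 3 (limma adjusted p = 0.092 to 0.122). With centring on the genes tested Mrps22 was at 0.068 and did not pass either (limma adjusted p = 0.398). Mrps31 and Mrps34 were higher at 0.19 and 0.17 (limma adjusted p = 0.034 and 0.046), and neither passed without any 1 of the replicates. At the other end of the small subunit, Mrps17 was at -0.16 (n = 3 arrays, limma adjusted p = 0.106) and did not pass. Neither did Mrps18b at -0.12 (n = 3 arrays, limma adjusted p = 0.204) or Mrps10 at -0.12 (limma adjusted p = 0.278). Of these, Mrps17 and Mrps10 are classed with the proteins that have bacterial counterparts. The other tested probe of Mrps17, measured on all 4 arrays, gave 0.11, and the mean of its probes was 0.0041, so its direction depends on the probe. Mrps12, a protein of the decoding site that has a bacterial counterpart, was at 0.15 (limma adjusted p = 0.067).

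Mrps36 carries a mitochondrial ribosomal name but is known as a subunit of the oxoglutarate dehydrogenase complex of the citric acid cycle. Its log2 intensity was 9.86, 10.19, 10.30 and 10.14 in knockout, against 9.48, 9.74, 9.94 and 10.00 in wild-type extracts. It was higher at 0.33 ± 0.059 (limma adjusted p = 0.012, and 0.052 without replicate 1), with 0.14 on array 4 and 0.36 to 0.45 on the others. Its second probe gave 0.17 and did not pass (adjusted p = 0.163 among all probes). Without Mrps36, 25 members with a place in the ribosome rose.

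The 49 members that did not pass lay on both sides of 0. An adjusted p under 0.1 was reached by 12 of them. Mrpl34, at 0.22 ± 0.063, missed the threshold with -0.0019 on array 1 and 0.24 to 0.33 on the others (adjusted p = 0.058). Mrpl1, at 0.19, varied from -0.055 on array 4 to 0.41 on array 2. Close to 0 on their brightest probes lay Mrps23 (0.0046), Mrps5 (-0.0094), Mrpl49 (-0.013, n = 3 arrays) and Mrps2 (-0.015). The other tested probes of Mrps5 gave 0.23 and 0.13, and those of Mrpl49 gave 0.21 and 0.15. The other probe of Mrps2 gave 0.14, and that of Mrps23 gave 0.037. Mrpl4 and Mrpl46 were at -0.16 each (adjusted p = 0.142 and 0.103), and Mrpl46 passed as lower without replicate 2 (-0.22, adjusted p = 0.034). The median SD between arrays was 0.089 for members, beside 0.10 for all genes.

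The choice of the brightest probe was set beside each probe on its own. The 112 tested probes of members, each fitted on its own, gave 37 that were higher (33.0%, where 8.43% of all 22360 probes were) and 2 that were lower (4.87% of all probes were). The 35 probes that were not the brightest of their gene had a median of 0.15, with 31 above 0, 12 higher and 0 lower in limma. Among 28 members with several tested probes, the probes had 1 sign in 18 and both signs in 10, and no member was called both ways. The widest disagreement was at Mrpl41, whose brighter probe gave 0.24 and whose dimmer probe gave -0.095 (adjusted p = 0.265 among all probes). The mean of both was 0.075, which did not pass (adjusted p = 0.252). On another probe, 8 members were higher that were not called on their brightest, namely Mrpl1, Mrpl3, Mrpl18, Mrpl40, Mrpl49, Mrps5, Mrps7 and Mrps33. Of the 26 members that rose, 20 rest on a single tested probe.

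**Figure D3:**
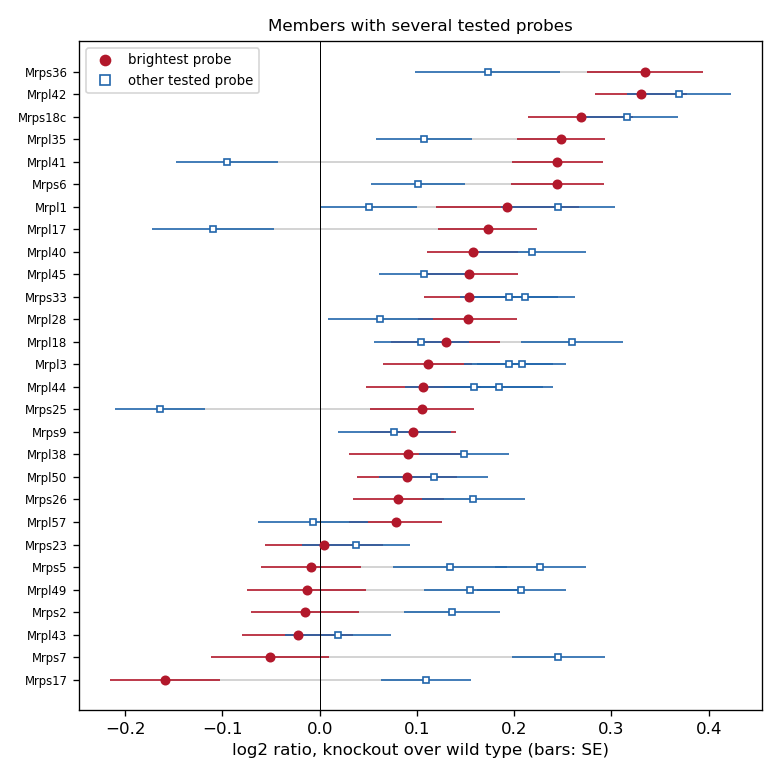
Log2 ratio of knockout over wild type (horizontal axis, bars ± SE) for each tested probe of the 28 mitochondrial ribosomal protein genes that had several, with the brightest probe in red and the others as open blue squares. Of the 35 probes that were not the brightest of their gene, 31 lie above 0, and the probes of 10 genes lie on both sides of 0.

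Member genes were brighter than most genes, with a median at the 71.6th percentile of brightness, and calls are more common among bright genes. With all genes in 4 equal bins of brightness, 12 of 33 members in the brightest bin were higher (36.4%, where 12.2% of all genes there were), and 11 of 35 in the next bin (31.4%, where 10.2% of all genes were). Both members that fell lie in the brightest bin. The scaling bears on all of these values. With median centring in place of loess the median of all genes moved to 0.25 and that of the members to 0.53, so that the difference between the medians was 0.28, where it was 0.14 with loess. Of all called genes, 64.9% were higher with loess, 79.4% with median centring and 46.9% with centring on the genes tested.

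**Figure D4:**
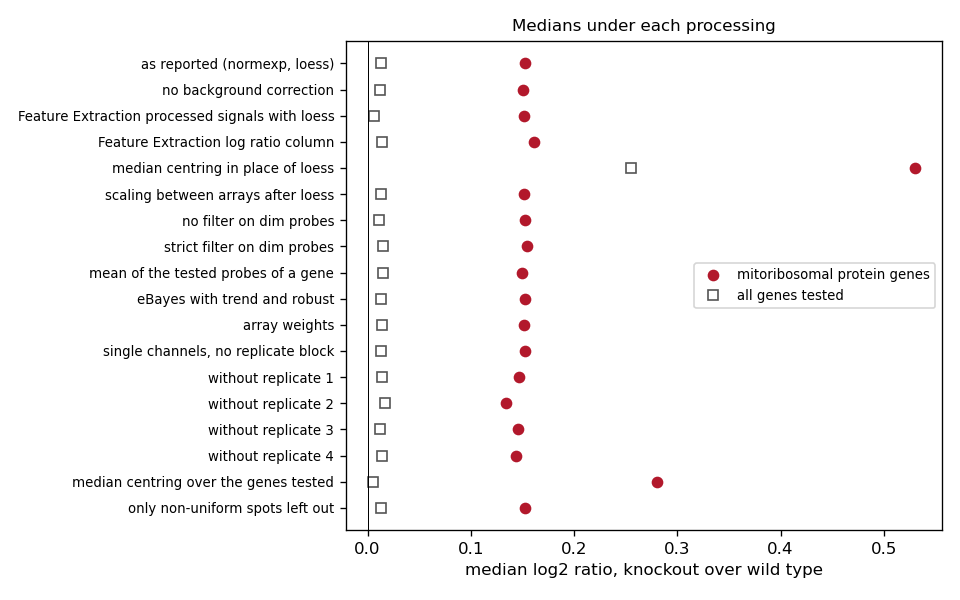
Median log2 ratio of knockout over wild type (horizontal axis) of the mitochondrial ribosomal protein genes (red points) and of all genes tested (open squares), with the processing used in the text in the top row and each alternative in a row below. The members' median lies above that of all genes in every row shown, and both medians are farthest to the right with median centring, at 0.53 and 0.25.

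Genes that act with the mitochondrial ribosome were read from lists of other genes. Of 5 ribosomal proteins with other names, Dap3, a small-subunit protein that binds GTP, was higher at 0.27 ± 0.047 (limma adjusted p = 0.012) and Aurkaip1 at 0.17 ± 0.045 (limma adjusted p = 0.042). These are 40% of that list, where 9.45% of all genes were higher. Gadd45gip1 at 0.087, Chchd1 at 0.063 and Ptcd3 at 0.038 did not pass. Of 26 measured assembly factors of 30 listed, 3 rose and 0 fell in limma (9 and 0 at an unadjusted p under 0.05). That is 11.5% higher, near the 9.45% of all genes tested. At an unadjusted p under 0.05, 2954 of all 15527 genes were higher and 1823 lower. The assembly factors that rose were Tfb1m, which methylates the small ribosomal RNA, at 0.33 ± 0.072, Noa1, a GTPase, at 0.23 ± 0.049 and Mterf4, which recruits an RNA methyltransferase, at 0.17 ± 0.043.

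Of 15 measured translation factors of 16 listed, 4 rose and 0 fell in limma (6 and 1 at an unadjusted p under 0.05), which is 26.7% higher beside 9.45% of all genes. Slirp, which stabilises mitochondrial messages, was at 0.40 ± 0.073, the ribosome recycling factor Mrrf at 0.35 ± 0.061, and the elongation factor Tsfm at 0.22 ± 0.043 (limma adjusted p = 0.014, 0.012 and 0.018). The recycling factor Gfm2 was higher at 0.20 ± 0.054, whereas the elongation factor Gfm1 was at -0.17 ± 0.052 and did not pass (limma adjusted p = 0.048 and 0.066). Of 15 measured genes of 17 listed for expression of the mitochondrial genome, Polg2, a subunit of its DNA polymerase, rose by 0.21 ± 0.044 and 0 fell in limma (4 and 0 at an unadjusted p under 0.05). This share of 6.67% is below the 9.45% of all genes that rose. Tfam, which packages that genome, was at 0.15 and did not pass.

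Among 10 regulators of mitochondrial genes, 0 rose in limma and Nrf1 fell by 0.43 ± 0.050 (limma adjusted p = 0.0032). That is 10% lower, where 5.12% of all genes were. At an unadjusted p under 0.05, 0 regulators were higher and 3 were lower. A second probe of Nrf1 gave 0.039. The coactivator Ppargc1a was at 0.036 and Gabpa, an ETS factor, at -0.10, neither past the threshold. The ribosomal protein genes of the cytosol, given side by side and with no test of the difference, had a median of 0.56 over 76 genes. Of these, 73 (96.1%) rose, where 9.45% of all genes did, and 0 fell in limma (74 and 0 at an unadjusted p under 0.05). Their median brightness was at the 97.6th percentile, beside the 71.6th for the members.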

How the data were processed

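The study measured whole pancreas of Cyp11a1 knockout and wild-type mouse embryos on 4 two-colour arrays, knockout in red and wild type in green, per the labels. The deposited files hold Agilent Feature Extraction 10.5.1.1 output, per the submitters' processing notes, with spot intensity per channel and a log10 ratio that is background-subtracted and dye-normalised, per the file headers. That log10 ratio matched the processed signals within 0.001 at 92.5% of spots.

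From the median intensities, background was corrected with normexp (offset 50) and loess was run within each array, with control and outlier-flagged spots at weight 0, in limma 3.58.1 on R 4.3.3. Means were not used here. A probe was tested if well above background in 1 channel on at least 3 arrays, and the brightest probe stood for its gene. The log2 ratio was tested against 0 with Benjamini-Hochberg adjustment over all 15527 genes. The number of arrays limits the precision. All lie on 1 slide. Scripts were tested on simulated data. Symbols came from a RefSeq table on GRCm38.p6, which named 25097 of 41174 probes (61.0%). Of the member genes, 4 were measured on 3 arrays.

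The members and lists were chosen with earlier results of these data known. Every member may be named, with full statistics for the 8 largest changes in each direction past the threshold and for Mrps36. Companion genes are named where they pass, up to 4 a list. Alternatives covered background, normalisation, Feature Extraction's own values, filters, probe choice, variance model, pairing and each array left out. Endocrine (Chga lower), duct, immune, endothelial (Tek lower) and mesenchyme (Pdgfrb higher) markers gave no other call. The result of 1 acinar marker is not reported here.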

Additional observations from a re-analysis of the deposited data

Results flagged for a closer look

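In 3 of 73 members measured on all 4 arrays, array 2 stood apart from the other arrays by Dixon's test. Chance flags about 1 in 20 such groups. Mrpl51 was at 0.32 on array 2, beside -0.0030 to 0.046 on the others. Mrps2 was at -0.19 on array 2, beside 0.026 to 0.051. Mrpl46 was at 0.025 on array 2, beside -0.25 to -0.20. None of these members passed the threshold over all arrays, but without replicate 2 Mrpl46 was lower at -0.22 and passed (limma adjusted p = 0.034). Array 2 held the value of Mrpl46 that stood apart, so leaving it out brings the others together and does not show a decrease.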

How the results depend on the processing

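The cause of these changes was not tested. Of 77 members, 28 passed, and 18 did with Feature Extraction's processed signals, 74 with median centring, 59 with centring on the genes tested (added after seeing the data) and 12 to 20 with 1 replicate left out. Of these, 26 were higher, and 17, 74, 57 and 10 to 17 were. With Feature Extraction's log ratio 22 members passed, 21 of them higher, and 19 of the 26 kept their call. In that setting 1878 of all genes passed (1268 higher, 610 lower). For the 2 lower, the count was 1 with processed signals or Feature Extraction's log ratio, 0 with median centring (0 at an unadjusted p under 0.05) and 1 to 3 without 1 replicate. With single channels and no replicate block, which drops the pairing of extracts on an array, 0 members passed, 0 higher and 0 lower (26 at an unadjusted p under 0.05, 2 of them lower), with 106 of all genes, 76 higher and 30 lower. Over all genes 2262 passed (1467 higher, 795 lower), against 1775, 1146 and 629 with Feature Extraction's processed signals. With median centring these counts were 11918, 9466 and 2452, and with centring on the genes tested 9066, 4254 and 4812. Without 1 replicate they were 966 to 1633, 611 to 996 and 346 to 637. Companion genes numbered 11 (10 higher, 1 lower), against 7 and 6 higher with processed signals, 60, 60 and 0 with median centring, 32, 26 and 6 with centring on the genes tested, 0, 0 and 0 with single channels (7 at an unadjusted p under 0.05), and 3 to 7 with 2 to 6 higher without 1 replicate. The member median was 0.53 and 0.28 with the 2 centrings, and its difference from all genes 0.28 with both. Members below 0 in the text that were above 0 and past the threshold with median centring were Mrps5 (0.39), Mrpl49 (0.44), Mrps2 (0.44), Mrps18a (0.47), Mrpl43 (0.33), Mrpl20 (0.41), Mrps7 (0.33), Mrpl16 (0.28), Mrpl10 (0.43), Mrps10 (0.23), Mrps18b (0.26), Mrpl4 (0.22), Mrps17 (0.24), Mrpl46 (0.34) and Mrpl12 (0.14), and Mrps14 (0.060) was above 0 without passing. With centring on the genes tested they were Mrpl49 (0.19), Mrps2 (0.19), Mrps18a (0.22), Mrpl20 (0.16) and Mrpl10 (0.18), while Mrps5 (0.14), Mrpl46 (0.089), Mrpl43 (0.082), Mrps7 (0.079), Mrpl16 (0.033) and Mrps18b (0.0031) were above 0 and Mrps27 (-0.12) and Mrps25 (-0.064) below 0 without passing. With the strict filter, through another probe, they were Mrpl49 (0.21) and Mrps7 (0.25).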
